A study of Mus musculus with 8 samples.

Results

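Enteroendocrine cells are the hormone-secreting cells of the intestinal epithelium, and the 10 genes described here encode their hormones and secretory granule proteins. They are *Chga*, *Chgb*, *Cck*, *Sct*, *Gip*, *Ghrl*, *Gcg*, *Sst*, *Tph1* and *Nts*, chosen by name as a panel of enteroendocrine products. All 10 were found among the 11554 genes listed for crypts, the 12701 listed for villi and the 11227 listed for both.

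RNA of small intestinal crypts and villi was sequenced from Ctrl and Gli1-PtgscKO mice on a C57BL/6 background, 1 month after tamoxifen, with 2 libraries labelled for each genotype and compartment. In Gli1-PtgscKO mice a tamoxifen-inducible Cre under *Gli1* (Gli1-CreERT2) deletes floxed *Ptgs1* and *Ptgs2*, which encode the prostaglandin-forming enzymes COX1 and COX2, and *Gli1* marks mesenchymal cells, so the targeted cells are not the enteroendocrine cells themselves. The sample labels describe the Ctrl mice as carrying Gli1-CreERT2 and a Rosa26-tdTomato reporter, whereas the study describes Ctrl mice with both floxed genes and no Cre, and the 2 accounts were not reconciled here. The study calls its replicates biological, but neither the labels nor the methods say whether the libraries of a group came from separate mice, so p-values measure the spread between these libraries only.

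The values are gene counts divided by a size factor for each library, called normalized counts here. The libraries held between 16853017 and 21121714 reads on the listed crypt genes and between 13477600 and 15751024 on the listed villus genes. The 2 Ctrl villus libraries were identical in every value and were counted as 1, so villi were compared without a test. Of the deleted genes, *Ptgs1* had 365.5 and 163.8 normalized counts in Ctrl crypts and 178.4 and 198.9 in Gli1-PtgscKO crypts, which overlap. Crypt RNA is not limited to the targeted mesenchymal cells, and *Ptgs1* is also on the tuft cell marker list, so these values do not test the deletion. From immunoblots of mesenchymal cells, the study reports an almost complete loss of both prostaglandin-forming enzymes. Neither *Ptgs2* nor *Gli1* is listed for either compartment. In bulk RNA, fewer enteroendocrine cells and less hormone RNA per cell cannot be told apart. By immunostaining of the small intestine, the study detected no change in Chga-positive enteroendocrine cells, a count of cells and not a level of RNA.

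Enteroendocrine cells arise from crypt progenitors through the transcription factor *Neurog3*, and most continue to move up the villus as they mature. They store peptides in dense-core granules, whose bulk protein is made of chromogranins, and release them on nutrients, on neural input or on paracrine signals. The peptide a cell makes depends on its place along the intestine and, for several lineages, on whether the cell lies in the crypt or on the villus. Prostaglandin E2, the product of COX enzymes acting with a terminal synthase, reaches epithelial cells as a paracrine signal and raises cAMP through some of its receptors.

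Transcript levels of different genes were set side by side as RPKM, the reads per kilobase of the longest annotated transcript at a common total of 1000000 reads on listed genes. In Ctrl crypts *Chgb*, which encodes the granule protein chromogranin B (chr2:132781278-132795079, mm10), was the most abundant of the 10, with 60.2 and 78.6 RPKM in the 2 libraries. *Gip*, *Gcg*, *Chga* and *Cck* followed in an order that differed between the libraries, from 38.8 RPKM for *Cck* in replicate 2 to 53.1 RPKM for *Gcg* in replicate 2. *Sst* and *Sct* lay between 24.2 and 33.99 RPKM and also changed places between the libraries, as did *Nts* and *Ghrl*, between 7.86 and 23.6 RPKM. *Tph1* was the least abundant in every crypt and villus library, with 3.48 and 4.55 RPKM in Ctrl crypts. Genes that changed places did not differ beyond the spread of the 2 Ctrl libraries, and only *Chgb* at the top and *Tph1* at the bottom kept their places.

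The order was another one in villi. In the Ctrl villus library *Gip* was highest with 584.7 RPKM, followed by *Sct* with 528.9 and *Cck* with 300.1. *Gip*, *Sct* and *Cck* held the first 3 places in that order in both Gli1-PtgscKO villus libraries as well. *Chgb* had 39.0 RPKM and *Gcg* 25.2 RPKM in the Ctrl villus library, and below them stood only *Tph1* with 3.85.

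For crypts against villi, reads were scaled to 1000000 reads on the 11227 genes of both tables (RPM). *Sct*, the gene of secretin (chr7:141278330-141279133), which stimulates bicarbonate secretion by the pancreas, had 14.9 and 21.01 RPM in Ctrl crypts and 327 in Ctrl villi, a ratio of 18.2 over the crypt mean. *Gip*, the gene of the K cell incretin GIP (chr11:96024545-96030831), had 33.1 and 28.5 in Ctrl crypts and 382.5 in Ctrl villi, a ratio of 12.4. *Ghrl*, which encodes the appetite hormone ghrelin (chr6:113716119-113719880), had 12.3 and 7.02 in Ctrl crypts and 98.6 in Ctrl villi, a ratio of 10.2. In each of these hormones all 3 villus libraries, of either genotype, lay above all 4 crypt libraries.

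*Cck*, the gene of the satiety and gallbladder hormone cholecystokinin (chr9:121489824-121495694), had 32.1 and 31.0 RPM in Ctrl crypts and 240.6 in Ctrl villi, a ratio of 7.62. *Nts*, the gene of neurotensin (chr10:102481756-102490486), a peptide of distal intestinal cells released after fat intake, had 13.6 and 29.5 in Ctrl crypts and 107.2 in Ctrl villi, a ratio of 4.98. *Sst*, the gene of somatostatin (chr16:23889573-23890958), which restrains the release of many other hormones, had 21.1 and 23.99 in Ctrl crypts and 98.8 in Ctrl villi, a ratio of 4.38. These genes, too, had no overlap between the 3 villus and the 4 crypt libraries.

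The other 4 genes behaved in a different way. *Chga*, which encodes the granule protein chromogranin A (chr12:102554969-102565028), had 74.6 and 83.0 RPM in Ctrl crypts and 164.8 in Ctrl villi, and Gli1-PtgscKO crypt replicate 1, with 126.1, lay above Gli1-PtgscKO villus replicate 2, with 119.7. *Tph1*, the rate-limiting enzyme of serotonin synthesis in enterochromaffin cells (chr7:46644641-46672537), had 15.9 and 20.8 in Ctrl crypts and 17.6 in Ctrl villi. *Gcg*, whose product is cut to GLP-1 in L cells (chr2:62474530-62483650), had 51.9 and 57.8 in Ctrl crypts and 27.5 in Ctrl villi, a ratio of 0.501. *Gcg* was the only member below every crypt library in every villus library, the nearest values being 38.6 in a villus and 51.9 in a crypt library. *Chgb* had 165.4 and 215.6 in Ctrl crypts against 107.2 in Ctrl villi, but 329.0 in Gli1-PtgscKO villus replicate 1, above all crypt libraries.

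Thus 6 of 10 members were higher in all villus than in all crypt libraries, beside 11.1% of all genes, and 1 was lower in all, beside 52.3%. The scale matters here, because the median gene of the 11227 fell by 1.06 on the log2 scale from Ctrl crypts to the Ctrl villus in RPM. With the median gene of each library set to 0, 9 of 10 members were higher in all villus libraries, beside 27.7% of all genes, and 0 were lower in all, beside 26.8%. On that scale, with each library centred on its own median gene, the log2 difference between Ctrl villus and Ctrl crypts was 5.27 for *Sct* and 4.73 for *Gip*, but 0.33 for *Chgb* and 0.17 for *Gcg*, so that only the direction of *Gcg*, *Chgb* and *Tph1* turned with the scale.

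**Figure D1:**
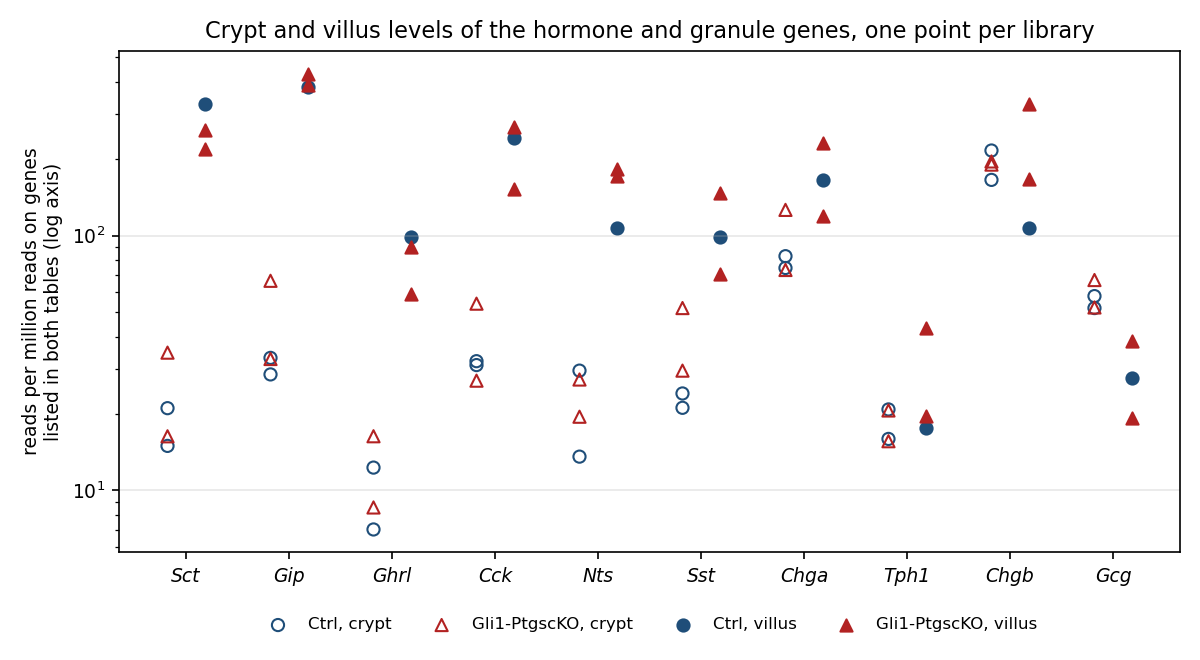
RPM on the genes listed in both tables (log axis) for each of the 10 genes, with open symbols for the 4 crypt libraries and filled symbols for the 3 villus libraries, circles for Ctrl and triangles for Gli1-PtgscKO. From left to right the genes go from the largest villus to crypt ratio in Ctrl, 18.2 for *Sct*, to the smallest, 0.501 for *Gcg*; the first 6 genes show no overlap between crypts and villi.

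A ratio of 2 members within 1 library does not depend on how the libraries were scaled. Per 100 reads of *Chga*, *Sct* had 20.03 to 27.5 reads in the 4 crypt libraries and 112.4 to 198.7 in the 3 villus libraries. *Gip* had 34.3 to 52.7 in crypts and 168.2 to 361.2 in villi. *Gcg* had 53.0 to 71.3 in crypts and 16.1 to 16.7 in villi, the narrowest villus range of any member. Of the 9 members other than *Chga*, 6 were above all crypt libraries in all villus libraries on this measure and 2, *Gcg* and *Chgb*, were below. *Chgb* went from 150.6 to 266.7 reads per 100 reads of *Chga* in crypts to 65.1 to 142.3 in villi. In both genotypes, then, villus RNA held more *Sct*, *Gip*, *Cck*, *Ghrl*, *Nts* and *Sst* per unit of *Chga* than crypt RNA, and less *Gcg* and *Chgb*.

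Promoter windows of RefSeq (GRCm38.p6), the 250 bases before a start site, were found for all 10 members and searched on both strands for 3 sequences. The cAMP response element TGACGTCA, which is its own reverse complement, is shown because prostaglandin E2 acts in part through cAMP, and it occurred before *Sst* and *Chgb* and in 1.55% of all 32851 windows. Both windows overlap an annotated GENCODE exon, so only 30 bases around the element are printed, in capitals for the element itself, from chr16:23890874-23890903 (minus strand) and chr2:132781559-132781588 (plus strand).
Sst: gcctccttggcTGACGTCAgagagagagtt
Chgb: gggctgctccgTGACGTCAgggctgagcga

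The element began 48 bases before the start site of *Sst* and 72 bases before that of *Chgb*. The E-box CAGATG, a form bound by NeuroD1 and other basic helix-loop-helix factors, occurred before *Sct*, *Cck* and *Gcg* and in 14.4% of all windows. The windows of these 3 genes are given whole, with the E-boxes in capitals, because *Sct* and *Gcg* are the ends of the crypt to villus order above, while *Cck* was, like *Sct*, higher in all villus than in all crypt libraries. They span chr7:141279134-141279383, chr9:121495695-121495944 and chr2:62483654-62483903, all on the minus strand.
Sct: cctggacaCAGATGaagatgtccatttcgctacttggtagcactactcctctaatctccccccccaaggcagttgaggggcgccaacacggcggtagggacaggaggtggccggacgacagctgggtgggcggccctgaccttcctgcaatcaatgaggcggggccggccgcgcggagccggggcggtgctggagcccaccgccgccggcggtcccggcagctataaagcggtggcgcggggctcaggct
Cck: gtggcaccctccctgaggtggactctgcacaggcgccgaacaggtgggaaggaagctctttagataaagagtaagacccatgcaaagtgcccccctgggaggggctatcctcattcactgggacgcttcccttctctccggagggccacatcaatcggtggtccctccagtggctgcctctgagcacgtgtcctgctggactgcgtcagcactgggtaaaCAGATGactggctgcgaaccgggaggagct
Gcg: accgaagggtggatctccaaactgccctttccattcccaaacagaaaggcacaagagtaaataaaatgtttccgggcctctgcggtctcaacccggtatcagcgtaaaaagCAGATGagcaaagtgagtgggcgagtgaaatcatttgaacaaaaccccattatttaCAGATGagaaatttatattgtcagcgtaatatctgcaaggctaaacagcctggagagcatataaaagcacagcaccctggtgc

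*Gcg* held 2 E-boxes, 139 and 83 bases before the start site, *Cck* held 1 at 30 bases and *Sct* 1 at 242 bases. A TATAAA sequence was found before *Sct*, 28 bases from the start site, and *Gcg*, and in 12.4% of all windows. The E-box was thus present before 2 hormone genes higher in villi, *Sct* and *Cck*, and before *Gcg*, which was lower in villi in RPM. The direction of *Gcg* turned with the scale, as given above. A match is a string of letters and says nothing of binding.

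The comparison of Gli1-PtgscKO with Ctrl crypts asks how these genes stood after loss of mesenchymal COX. None of the 10 members passed the study's threshold, an unadjusted p under 0.01 and a log2 fold change over 1 in either direction, by limma-trend on log2(normalized count + 1). Over all genes, 0.173% were called higher and 0.00866% lower at that threshold, and 0% had a Benjamini-Hochberg adjusted p under 0.05, with 0.632% at an unadjusted p under 0.05. The adjusted p by limma-trend rounded to 1.0 for all 10 members, and 0 had an unadjusted p under 0.05. DESeq2 and edgeR on the recovered reads also called 0 members, with 1, *Sst*, at an unadjusted p under 0.05 in each (0.0196 and 0.0373). With replicate number as a block, the unadjusted p of *Sst* was 0.0073 by limma-trend and 0.0091 by edgeR. That of *Gip* was 0.031 and 0.034. Neither was called, since their log2 fold changes stayed under 1, and the adjusted p of *Sst* by limma-trend was 0.83. In these fits 368 and 349 of all genes had an unadjusted p under 0.05. All 10 log2 fold changes were above 0, with a median of 0.35 beside -0.01 for all genes, but this rested on 1 library. Gli1-PtgscKO replicate 1 was the highest of the 4 libraries for 7 of 10 members, beside 39.2% of all genes, and its median log2 difference from the Ctrl mean was 0.86. The median in Gli1-PtgscKO replicate 2 was -0.04.

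*Sst* came nearest to the threshold. It had 386.1 and 455.5 normalized counts in Ctrl crypts and 1063 and 554.3 in Gli1-PtgscKO crypts, and both Gli1-PtgscKO values lay above both Ctrl values. The log2 fold change of *Sst* was 0.87 ± 0.37 (SE, n = 2 and 2), with an unadjusted p of 0.051 by limma-trend. *Gip* had 606.3 and 541.0 normalized counts in Ctrl crypts and 1360 and 615.7 in Gli1-PtgscKO crypts. The second Gli1-PtgscKO value of *Gip* was barely above the higher Ctrl value, and the log2 fold change was 0.68 ± 0.40 (SE) with an unadjusted p of 0.136 by limma-trend. These were the only 2 members above both Ctrl libraries in both Gli1-PtgscKO libraries, beside 9.73% of all genes, and 0 members were below in both, beside 11.3%. Without Ctrl replicate 2, 8 members were above the remaining Ctrl library in both Gli1-PtgscKO libraries, and without Ctrl replicate 1, 3 were above and 3 below. Without Gli1-PtgscKO replicate 2, 7 were above both Ctrl libraries. The shares of all genes were not counted with a library left out, and 9.73% and 11.3% do not apply to those counts.

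For the other peptide hormones the Gli1-PtgscKO libraries spread around the Ctrl libraries. *Cck* had 588.5 and 588.7 normalized counts in Ctrl, closely alike, and 1106 and 506.2 in Gli1-PtgscKO, 1 value above and 1 below. *Sct* had 273.6 and 398.8 in Ctrl and 710.3 and 306.2 in Gli1-PtgscKO, and *Ghrl* had 224.9 and 133.2 against 333.6 and 160.9. In both genes Gli1-PtgscKO replicate 1 was above the Ctrl libraries and replicate 2 was between them. *Gcg* had 951.1 and 1098 normalized counts in Ctrl and 1369 and 981.1 in Gli1-PtgscKO, a log2 fold change of 0.18 ± 0.27 (SE). *Nts* had the widest Ctrl spread in proportion to its level, 248.3 and 559.9, and its Gli1-PtgscKO values of 557.1 and 365.4 both fell within it.

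The granule proteins and the serotonin enzyme gave overlapping groups too. *Chga* had 1366 and 1575 normalized counts in Ctrl and 2581 and 1377 in Gli1-PtgscKO, so that replicate 2 lay between the Ctrl libraries. *Chgb* had 3030 and 4094 in Ctrl and 3886 and 3672 in Gli1-PtgscKO, both between the Ctrl values, with a log2 fold change of 0.10 ± 0.26 (SE). *Tph1* had 291.4 and 394.3 in Ctrl and 318.9 and 386.6 in Gli1-PtgscKO, again both between the Ctrl values, with a log2 fold change of 0.05 ± 0.32 (SE). For neither granule gene nor *Tph1* was there a difference beyond the spread between replicates.

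**Figure D2:**
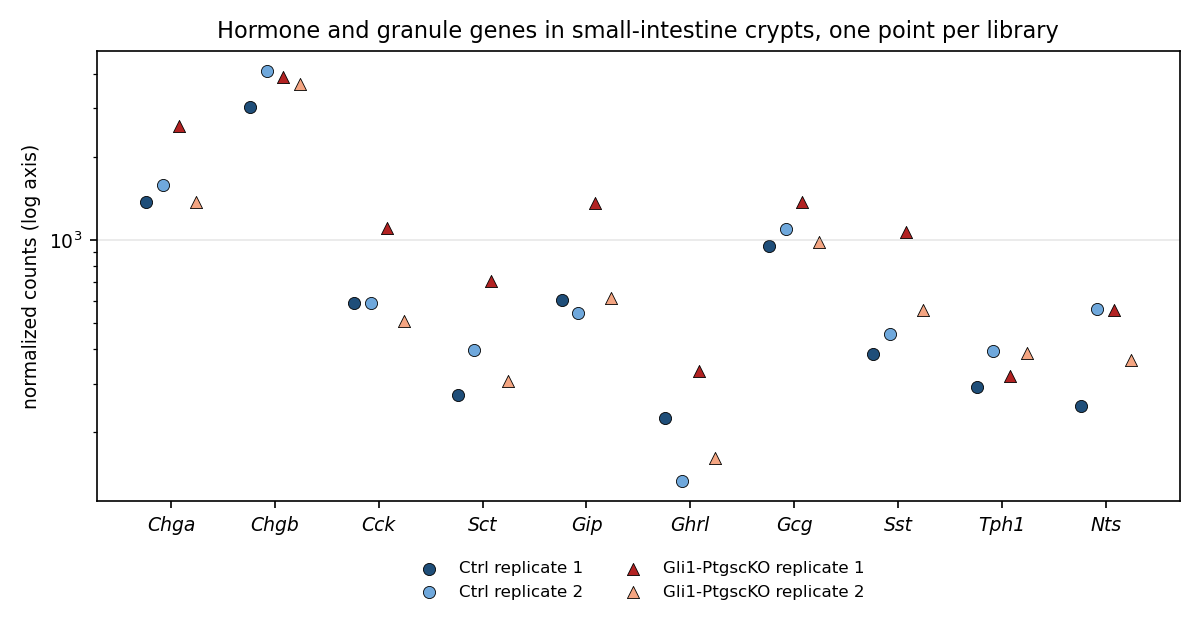
Normalized counts (log axis) of the 10 genes in the 4 crypt libraries, circles for Ctrl and triangles for Gli1-PtgscKO, 1 point per library and no mean. The dark red triangle, Gli1-PtgscKO replicate 1, is the highest point for 7 genes, while the light triangle, replicate 2, is above both Ctrl circles only for *Gip* and *Sst*.

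Transcript length moved with these differences. The hormone genes are short, and the median longest transcript of the 10 members was 989.5 bases beside 3400 for the listed crypt genes. Over all crypt genes, the log2 difference of Gli1-PtgscKO replicate 1 from the Ctrl mean fell with length (Spearman's rho -0.66, across 11546 genes), and that of replicate 2 rose with it (rho 0.31). After a curve over length was subtracted from each library, the median log2 fold change of the members in crypts was 0.04, and it was 0.00 in replicate 1 and 0.10 in replicate 2. The length-corrected log2 fold change was 0.42 for *Sst*, with an unadjusted p of 0.0998 by limma-trend, 0.21 for *Chga* and 0.19 for *Gip*, and those of *Cck* (-0.07), *Sct* (-0.0024), *Gcg* (-0.14) and *Nts* (-0.01) turned to 0 or below. Leaving out Gli1-PtgscKO replicate 2 gave *Sst*, *Gip* and *Sct* log2 fold changes of 1.34, 1.25 and 1.10 past the threshold, and leaving out replicate 1 gave 0.40, 0.10 and -0.11, which is how far 1 library decides these values.

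In villi, the 2 Gli1-PtgscKO libraries were set against the single Ctrl library, without a test. *Sct* had 5514 normalized counts in Ctrl and 3117 and 2829 in Gli1-PtgscKO, a mean log2 difference of -0.89, the lowest of the members. *Ghrl* had 1660 in Ctrl against 1086 and 764.0, and *Cck* had 4052 against 3212 and 1967. For these hormones both Gli1-PtgscKO libraries were below Ctrl, with mean log2 differences of -0.86 for *Ghrl* and -0.69 for *Cck*. *Gip* had 6442 in Ctrl against 4665 and 5607, a mean log2 difference of -0.33. *Chga*, with 2774 in Ctrl and 2774 and 1552 in Gli1-PtgscKO, and *Gcg*, with 463.4 against 462.6 and 249.2, were lower in both only formally, since replicate 1 lay within 1 normalized count of Ctrl.

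*Nts* was above Ctrl in both Gli1-PtgscKO libraries, with 1805 normalized counts in Ctrl and 2052 and 2371 in Gli1-PtgscKO. *Chgb* was above it as well, with 1805 in Ctrl and 3947 and 2164 in Gli1-PtgscKO, the largest upward mean log2 difference of the members at 0.70. *Sst*, with 1663 against 1760 and 911.8, and *Tph1*, with 296.5 against 518.4 and 254.0, had 1 library on either side. Of the 2 chromogranins, *Chgb* was thus higher in both libraries, while *Chga* was equal to Ctrl in replicate 1 and lower in replicate 2. After the length correction described below, the log2 differences of *Chga* were 0.41 in replicate 1 and -0.47 in replicate 2.

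The 6 of 10 members below Ctrl in both villus libraries stood beside 44.2% of all genes, and the 2 above beside 43.7%. No member was past a log2 difference of 1 in either direction with both libraries on that side, where 13.4% of all genes were higher and 9.4% lower. The median over the members was -0.41, with -0.00 in replicate 1 and -0.85 in replicate 2. Here both Gli1-PtgscKO libraries rose with transcript length against Ctrl (Spearman's rho 0.54 and 0.51 across 12692 genes). After the length correction the median was 0.19, 4 members, *Chgb*, *Nts*, *Gip* and *Sct*, were above Ctrl in both libraries beside 41.2% of all genes, and 0 were below in both beside 43.5%. *Sct*, *Cck*, *Gip*, *Gcg* and *Sst* thereby changed sign, to 0.17, 0.14, 0.68, 0.22 and 0.53, while *Chgb* at 0.84 and *Nts* at 0.90 were above Ctrl with and without it. With library size alone in place of the deposited size factors, 4 members were above and 2 below. The shares of all genes were not counted on that scale.

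**Figure D3:**
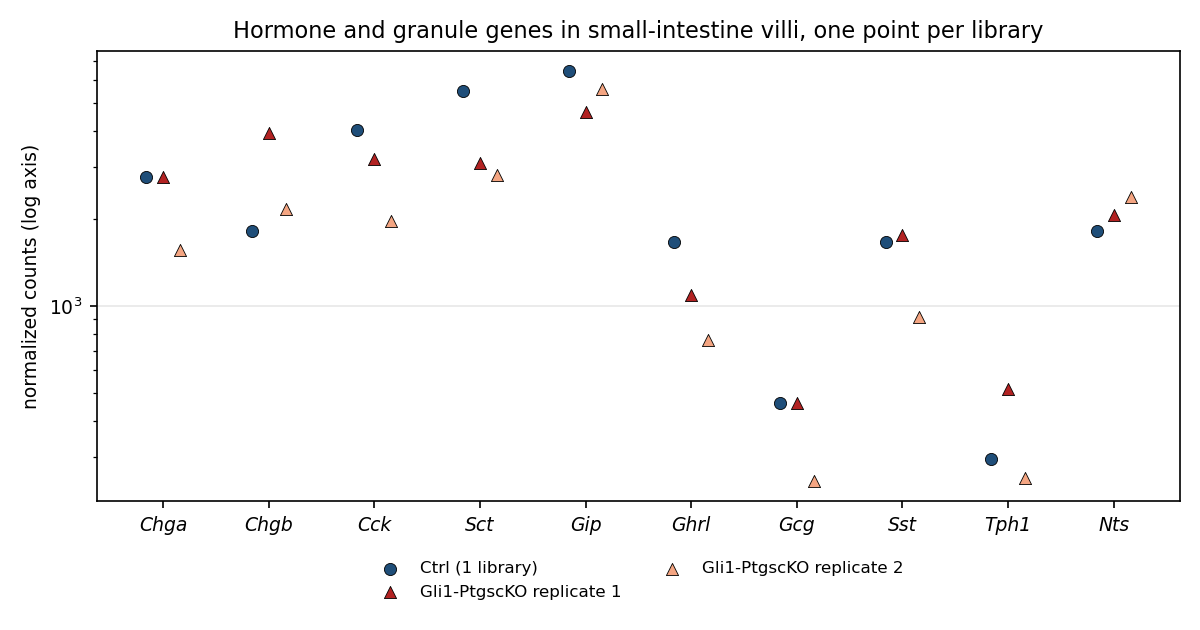
Normalized counts (log axis) of the 10 genes in the Ctrl villus library (circle) and the 2 Gli1-PtgscKO villus libraries (triangles). Both triangles lie clearly below the circle for *Cck*, *Sct*, *Gip* and *Ghrl*, both lie above it for *Chgb* and *Nts*, and for *Chga* and *Gcg* replicate 1 coincides with Ctrl.

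**Figure D4:**
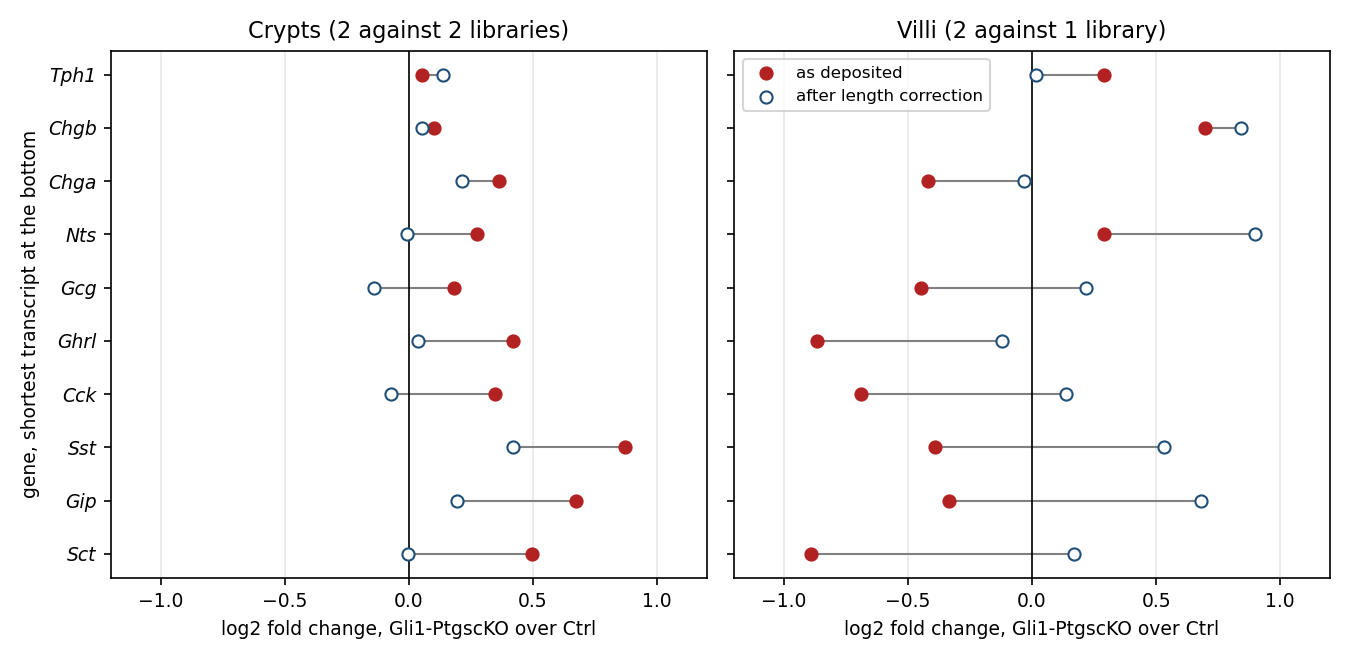
Log2 fold change of Gli1-PtgscKO over Ctrl for the 10 genes in crypts (left) and villi (right), filled for the values as deposited and open after the length correction, with genes ordered from the shortest transcript at the bottom, *Sct*, to the longest, *Tph1*. In crypts the correction moved the short genes towards 0 and in villi it moved *Sct* from -0.89 to 0.17 and *Gip* from -0.33 to 0.68.

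Other enteroendocrine genes were read from lists of genes known for the lineage. Of 8 other gut hormone genes, 4 were listed in crypts, and 0 were called by limma-trend, with 1, *Gast*, at an unadjusted p under 0.05. DESeq2 and edgeR each called *Gast* higher, and the study names it among its upregulated genes in these crypts. *Gast*, the gene of gastrin, which G cells of the stomach and the first part of the duodenum release, had 315.8 and 178.2 normalized counts in Ctrl crypts and 1487 and 512.9 in Gli1-PtgscKO crypts. Both Gli1-PtgscKO values of *Gast* were above both Ctrl values, with a log2 fold change of 1.88 ± 0.54 (SE) and an unadjusted p of 0.011 by limma-trend. After the length correction the log2 fold change of *Gast* was 1.28 with an unadjusted p of 0.0023 by limma-trend, past the threshold, and DESeq2 gave 2.02 with an adjusted p of 0.0486 and edgeR 2.01 with an unadjusted p of 0.0083. With the replicate block the adjusted p of *Gast* by limma-trend was 0.00015, and it ranged from that to 1.0 over all alternatives. Of genes of stomach surface, neck and chief cells, 7 of 8 listed in crypts were called higher by limma-trend, beside 0.173% of all genes. Their summed level was 26598 and 33467 normalized counts in Ctrl and 108791 and 66730 in Gli1-PtgscKO, led by *Gkn2* and *Gkn1*. This list includes *Gkn1*, *Gkn2*, *Tff2*, *Muc5ac* and *Pgc*, which the study had already named as upregulated in these crypts. The count therefore repeats a result of the same data. *Sst* and *Ghrl* are also made in the stomach, and the part of stomach RNA in the crypt values of *Gast*, *Sst* and *Ghrl* was not tested. The parietal cell genes *Atp4a* and *Atp4b* are not among the listed genes.

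Among 25 genes of granules and prohormone processing, 16 were listed in crypts, and 0 were called or had an unadjusted p under 0.05 by limma-trend, DESeq2 or edgeR. *Scg2*, a secretogranin, was above Ctrl in both Gli1-PtgscKO crypt libraries, with 169.6 and 126.9 normalized counts in Ctrl and 176.3 and 215.7 in Gli1-PtgscKO, and *Syt13*, a synaptotagmin, was below in both, with 77.8 and 115.2 against 62.9 and 67.0. Of 22 transcription factors of the lineage, 17 were listed, with 0 called and 0 at an unadjusted p under 0.05 by any of these tools. *Rfx6*, needed for several hormone-producing lineages, had 73.1 and 84.6 in Ctrl and 110.2 and 139.7 in Gli1-PtgscKO, a log2 fold change of 0.65 ± 0.44 (SE), and *Runx1t1* was lower in both, with 52.5 and 54.9 against 47.2 and 42.5. *Neurog3*, the factor that starts the lineage, gave overlapping groups, with 103.1 and 131.4 in Ctrl and 97.6 and 130.7 in Gli1-PtgscKO. Of 20 genes of nutrient receptors and excitability, 9 were listed, again with 0 called and 0 at an unadjusted p under 0.05 by these tools. In crypts 4 of the 9 were lower in both libraries, beside 11.3% of all genes, and 0 were higher, beside 9.73%. The largest changes among these were *Cacna1h* (log2 fold change -0.69), *Htr4* (-0.62) and *Abcc8* (-0.54), at unadjusted p of 0.199, 0.207 and 0.376 by limma-trend. The median log2 fold change of the 9 was -0.32, and -0.13 after the length correction.

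In villi more of the transcription factors and granule genes lay above Ctrl than below it. Of 18 listed transcription factors, 13 were above Ctrl in both Gli1-PtgscKO libraries and 3 below, with a median log2 difference of 0.65, beside the shares of 43.7% and 44.2% over all genes given above. *Rfx6* had 11.6 normalized counts in Ctrl and 55.8 and 48.3 in Gli1-PtgscKO villi, a mean log2 difference of 2.07. Its Ctrl value was 10 reads in 1 library, near the smallest listed mean of 8.82. *St18*, *Nkx2-2* and *Pax6*, also above Ctrl, had 4, 10 and 14 Ctrl reads, while *Mlxipl* had 967. Genes so low in Ctrl can be listed through their Gli1-PtgscKO values, which limits these counts of genes above Ctrl. Of 24 listed granule genes, 13 were above and 4 below, and of 12 listed receptor and excitability genes 6 were above and 2 below. Beside the same 43.7% and 44.2% of all genes, the counts above were not far from that share, and those below were under it. *Pyy*, the gene of the L cell hormone peptide YY, was below Ctrl, with 1236 in Ctrl and 515.3 and 570.8 in Gli1-PtgscKO, a mean log2 difference of -1.19 that became -0.04 after the length correction.

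In Ctrl the lineage factors *Insm1* and *Neurod1* had villus to crypt ratios of 0.17 and 0.41 in RPM. Their log2 differences were -2.26 and -1.08, beside -1.06 for the median gene, so *Neurod1* stood near the median gene. Markers of crypt stem cells were also mostly above Ctrl in Gli1-PtgscKO villi. Of 8 stem cell genes, 6 were above Ctrl in both Gli1-PtgscKO villus libraries, beside 43.7% of all genes, and 1 was below, beside 44.2%. Their summed level was 2994 normalized counts in Ctrl and 5081 and 4042 in Gli1-PtgscKO, led by *Olfm4* with 1697 against 3056 and 2234. The part of crypt RNA in the villus values of *Rfx6* and *Chgb* was not tested. Regional markers differed from Ctrl in villi as well. Of 8 ileum genes, 7 were below Ctrl in both Gli1-PtgscKO libraries, beside 44.2% of all genes. Their summed level was 56157 in Ctrl and 29590 and 33989 in Gli1-PtgscKO. The median log2 difference of these genes was -0.73, and -0.51 after the length correction. Of 6 duodenum genes, 3 were above Ctrl in both libraries, beside 43.7% of all genes, and 2 were below. The part of intestinal region in the villus values of *Pyy*, *Nts* and *Gip* was not tested. The immune list summed to 24479 in the Ctrl villus library and to 7313 and 7622 in Gli1-PtgscKO. In it, 6 of 10 genes were lower in both, beside 44.2% of all genes.

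Markers of other cell types that make the same products were listed only in part. Of 8 islet genes, *Slc2a2* is listed in crypts and *Slc2a2* and *Iapp* in villi, while *Ins1* and *Ins2* are listed in neither. Of 12 neuron and glia genes, only *Ret* is listed in either compartment, and *Elavl4* is not. Genes that are not listed had no adjusted p, so their absence does not show that such cells were absent. Of 9 mast cell genes, which matter for *Tph1*, *Kit*, *Mcpt1* and *Mcpt2* are listed in both compartments and *Cpa3*, *Cma1* and *Mcpt4* are not. *Dcn*, a mesenchymal proteoglycan gene, ranged from 3458 to 5819 normalized counts over the 4 crypt libraries, with overlapping groups.

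Likeness among the members across the 7 distinct libraries is given as a description, since the libraries share tissue, depth and length differences and each member is part of the profile it is set against. Pearson's r of log2 RPM with the mean standardized profile of the 10 was 0.97 for *Sst*, 0.96 for *Chga* and 0.93 for *Cck*, and from 0.89 to 0.90 for *Nts*, *Sct*, *Ghrl* and *Gip*. It was 0.74 for *Tph1*, 0.31 for *Chgb* and -0.54 for *Gcg*, which thus ran against the profile. The 5 other genes closest to the profile were *Slc2a9* (r = 0.99), *Ccdc114* (0.99), *Phldb3* (0.97), *Fuca2* (0.97) and *Retsat* (0.97), none of which was on an enteroendocrine list.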

How the data were processed

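RNA of crypts and villi was sequenced from Ctrl and Gli1-PtgscKO mice. The authors aligned reads to mm10 with STAR, counted them per gene and compared groups with DESeq2. The deposited signal is each gene count divided by the size factor of its library. The tables also hold the authors' fold changes and p-values, which were not used. The counting program, strand setting and annotation are not given in the sources used here, so antisense and overlapping genes cannot be told apart. Genes without an adjusted p are not listed, and the smallest mean was 48.4 in crypts and 8.82 in villi. All values (100%) were whole multiples of 1 read within a tolerance of 0.01, which gave the depths. Columns of unmapped samples were 0. Groups came from the sample titles. The labels and the study's methods name different RNA and library kits.

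The crypt libraries of both genotypes were compared with limma-trend, using limma 3.58.1 in R 4.3.3, on the log2 scale after adding 1 to each value, among genes whose mean was at least 1. On that scale the fold change of weakly expressed genes is understated. An exact permutation test of 2 against 2 libraries cannot give a two-sided p under 0.333. For the length correction a lowess curve (span 0.3) over log2 of the longest GENCODE M21 transcript was taken off each library. The alternatives were a replicate block, DESeq2 1.42.0 and edgeR 4.0.16 on the recovered reads, library size alone, at least 10 reads, no filter, a pseudocount of 0.1, the length correction, and leaving out each library. The crypt and villus tables were normalized separately, so levels across them were set in RPM. The limma script was tested on simulated data.

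The members and lists were chosen with earlier results of these data known. Named genes are the 10 members, *Ptgs1*, *Ptgs2* and *Gli1*, up to 3 genes per enteroendocrine list with the largest crypt change among those whose groups do not overlap, the 5 genes closest to the members' profile and the most abundant marker genes. *Neurog3*, *Pyy*, *Insm1*, *Neurod1*, *Dcn* and the absent markers were added after their values were seen. Figures were drawn with matplotlib 3.10.9.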

Additional observations from a re-analysis of the deposited data

Results flagged for a closer look

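*Gip* lay on opposite sides of Ctrl in the 2 compartments. Both Gli1-PtgscKO crypt libraries were above both Ctrl crypt libraries, with a log2 fold change of 0.68, and both Gli1-PtgscKO villus libraries were below the Ctrl villus library, with a mean log2 difference of -0.33. The difference between the compartments was not tested. After the length correction the values were 0.19 and 0.68.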

How the results depend on the processing

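With 2 crypt libraries per group and 1 distinct Ctrl villus library, depth and replication limit what can be seen, and no villus call has an error for Ctrl. Leaving out a library leaves an arm with 1 sample, which is then assumed to vary like the other group.

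No member was called in crypts under any alternative that kept all 4 libraries. Over all crypt genes, 20 were called higher, 1 lower and 0 had an adjusted p under 0.05. DESeq2 gave 60, 5 and 11, and edgeR called 3 lower. The genes called lower were 4 with library size alone and 4 with the length correction. Replicate numbers are shared between the groups, but nothing says that they mark a litter or a day. The correlation of the deviations of same-numbered libraries was 0.25 over the 2 pairs. With the replicate block, limma-trend called 63 higher, 15 lower and 34 at an adjusted p under 0.05, edgeR with the replicate block 62, 11 and 26, and the length correction with the replicate block 5 lower. None of these fits called a member. *Gast* was called by DESeq2, by edgeR, with the length correction, with the block, and without Ctrl replicate 1 or Gli1-PtgscKO replicate 2, when its log2 fold change was 2.29 or 2.64, and by no other alternative.

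Leaving out 1 crypt library gave 15 to 593 genes called higher, 3 to 288 called lower and 0 to 1987 at an adjusted p under 0.05, the highest without Gli1-PtgscKO replicate 2. The members higher in both Gli1-PtgscKO libraries were then 2 to 8, the most without Ctrl replicate 2, and those lower 0 to 3, the most without Ctrl replicate 1, and the median of the members ranged from -0.044 to 0.86. With library size alone, 1 member was higher in both crypt libraries. Shares of all genes were not counted for library size alone or with a library left out. The crypt log2 fold change ranged from -0.092 to 0.81 for *Chga*, -0.12 to 0.32 for *Chgb*, -0.22 to 0.91 for *Cck*, -0.11 to 1.10 for *Sct*, 0.10 to 1.25 for *Gip*, -0.10 to 0.94 for *Ghrl*, -0.059 to 0.42 for *Gcg*, 0.40 to 1.34 for *Sst*, -0.17 to 0.27 for *Tph1* and -0.31 to 0.86 for *Nts* when 1 library was left out. With library size alone *Tph1* turned to -0.022. The length correction turned *Cck* to -0.072, *Sct* to -0.0024, *Gcg* to -0.14 and *Nts* to -0.0070, with and without the block.

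In villi, library size alone gave 4 members above and 2 below Ctrl, with *Chga* at 0.013, *Gip* at 0.10 and *Sst* at 0.040. The length correction gave 4 above and 0 below, with *Cck* at 0.14, *Sct* at 0.17, *Gip* at 0.68, *Gcg* at 0.22 and *Sst* at 0.53. Leaving out 1 Gli1-PtgscKO villus library gave 2 to 4 members above, 6 to 8 below and a median from -0.85 to -0.00, with *Tph1* from -0.22 to 0.80 and *Sst* from -0.87 to 0.081. The shares of all genes in these villus settings, the length correction apart, were not counted.

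For Ctrl villi against Ctrl crypts, the median log2 ratio of the members was 2.22, or 1.91 to 2.52 with either Ctrl crypt library left out, when *Tph1* ranged from -0.23 to 0.14. Among the alternatives chosen after seeing the data, the median was 2.77 with the length correction, 3.29 with the median log2 ratio of all genes set to 0 and 1.21 per read of *Chga*. The length correction turned *Chgb* to 0.045 and *Tph1* to 1.36, and the median log2 ratio set to 0 turned *Chgb* to 0.25, *Gcg* to 0.10 and *Tph1* to 1.02. Setting the median ratio to 0 gave slightly lower values than centring each library on its own median gene, which gave 0.33 for *Chgb*, 0.17 for *Gcg* and 1.09 for *Tph1*. For results whose direction turned by scaling or by a left-out library, the cause was not tested.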
